A study of Mus musculus with 6 samples.

Results

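The genes described here act around matriptase, the growth factor HGF and the activation of plasminogen at the cell surface. There were 10 of them: the proteases St14 and Prss8, the inhibitors Spint1 and Spint2, the ligand Hgf, the receptors Met and Mst1r, the plasminogen activators Plau and Plat, and the activator receptor Plaur. They were chosen by name, with earlier results of these data known. Each was read by 1 probe set paired with exactly 1 gene symbol, and they are 10 of the 10261 genes read this way in the deposited data. Shares given below for all probe sets are over the 11288 deposited probe sets with 1 gene symbol. The study compared primary mouse keratinocytes, taken from newborn skin at P0, with embryonic fibroblasts (MEFs), taken at E13.5, and neither was treated. RNA was hybridised to MoGene-1_0-st arrays of Affymetrix, of which 3 carry the label keratinocytes and 3 the label MEFs, numbered as biological replicates. In the study's methods the keratinocytes came from back skin and grew in a keratinocyte medium, and the MEFs came from C57BL/6J embryos and grew in DMEM with serum. The isolation protocol names DR-4 as the desired strain and describes embryos that were pooled after removal of the head and inner organs. For the keratinocytes no strain is named in the sources used here. Culture medium and age differ between the groups together with the cell type and cannot be told apart from it.

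Matriptase, encoded by St14, is a serine protease anchored in the membrane of epithelial cells, where it takes part in building the epidermal barrier. It works with prostasin, the product of Prss8, and is held in check by the Kunitz-type inhibitors HAI-1 and HAI-2, the products of Spint1 and Spint2. Proteases of this kind cut inactive precursors, among them pro-HGF, a growth factor that mesenchymal cells secrete and that binds the receptor tyrosine kinase Met on epithelial cells. Plau and Plat encode urokinase and tissue-type plasminogen activator, which turn plasminogen into plasmin, and urokinase is bound at the cell surface by its receptor, the product of Plaur.

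The values are log2 signals per probe set, so that a difference of 1 is a 2-fold change. Differences are given as keratinocyte-labelled minus MEF-labelled arrays and were tested with limma over 11288 probe sets, with a Benjamini-Hochberg adjusted p under 0.05 as the threshold. The background level of an array was the 95th percentile of the 10 olfactory receptor probe sets in the deposited data. With 10 values this percentile rests on the highest of them, and whether these genes were silent was not tested. It lay between 5.49 and 5.92 on the keratinocyte-labelled arrays and between 6.05 and 6.58 on the MEF-labelled arrays, close to the array medians of 6.16 to 6.31, so a gene under it need not be silent. Where a gene was at or under background on all arrays of its dim group, the fold is a lower bound, taken from the background in place of the lower signal. No fold is given where a gene was above background on no array or where the bound came out under 1.

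The label check went against the labels. Cdh1, which encodes the epithelial adhesion protein E-cadherin, had log2 signals of 3.33, 2.16 and 3.26 on the keratinocyte-labelled arrays, against 8.62, 8.59 and 8.73 on the MEF-labelled arrays. Vim, which encodes vimentin, an intermediate filament protein of mesenchymal cells, stood at 11.93, 11.97 and 12.03 on the keratinocyte-labelled arrays and at 3.81, 3.92 and 3.78 on the MEF-labelled arrays. Of 12 keratinocyte markers, 12 were lower on the keratinocyte-labelled arrays (median log2 difference of -6.60), and of 12 fibroblast markers, 12 were higher there (median of 6.88). The mean log2 signal of the keratinocyte markers lay at 2.79 to 3.00 on the keratinocyte-labelled arrays and at 9.90 to 9.98 on the MEF-labelled arrays, and that of the fibroblast markers at 9.61 to 9.67 and at 2.71 to 2.90 on the same sets of arrays. On these markers the MEF-labelled arrays carried the keratinocyte pattern and the keratinocyte-labelled arrays the fibroblast pattern. Whether the labels were exchanged was not tested. Every direction below is therefore given for the arrays as labelled. Of markers of other cells that could be present, 2 of 10 listed for macrophages and leukocytes, 1 of 9 for endothelium, 2 of 7 for skeletal muscle and 0 of 8 for melanocytes were measured. The macrophage gene Cd68 was lower on the keratinocyte-labelled arrays (log2 difference of -3.92) and Lyz2 higher (3.74). The endothelial gene Kdr did not rise above background on any array. The muscle genes Des and Actc1 were higher on the keratinocyte-labelled arrays by 3.87 and 1.47. Lyz2 and Des were each above background on only 1 keratinocyte-labelled array and on no MEF-labelled array. The part of such cells in the results was not tested. In RNA of a whole culture, fewer cells of a type and less RNA per cell cannot be told apart.

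All 10 genes passed the test: 3 were higher on the keratinocyte-labelled arrays, namely Hgf, Plat and Plaur, and 7 were lower, namely St14, Prss8, Spint1, Spint2, Met, Mst1r and Plau. Over all probe sets 74.0% passed, 32.4% as higher and 41.6% as lower on the keratinocyte-labelled arrays, so that passing the test was common on these arrays. The groups did not overlap for any of the 10 genes, as for 77.9% of all probe sets, and the exact two-sided permutation test gave each gene p = 0.1, below which 3 arrays against 3 cannot go. Because the genes were chosen with earlier results of these data known, the comparisons with all probe sets that follow are not independent. Of the 10 genes, 8 were above background on at least 1 array, against 73.1% of all probe sets. A log2 difference of at least 1 was seen for 8, against 28.3%. The median log2 difference was -2.89 over the 10 genes and -0.12 over all probe sets. The arrays with high Cdh1 were thus those with the higher signals of the matriptase system and of both receptors, and the arrays with high Vim those with the higher Hgf and Plat.

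**Figure D1:**
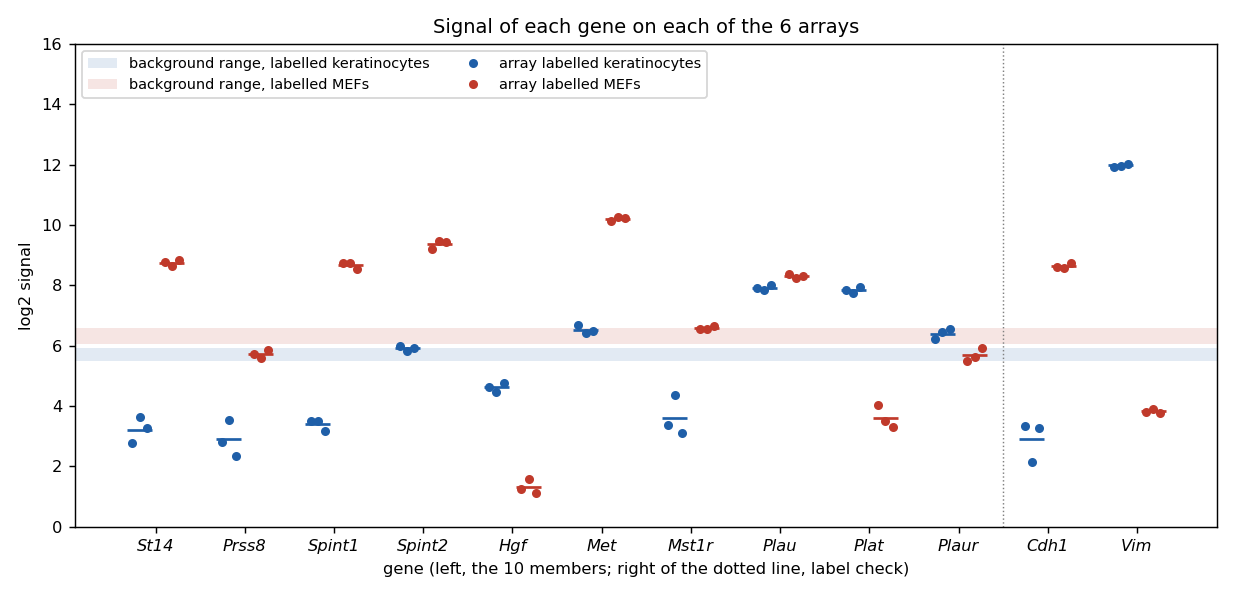
Log2 signal (vertical axis) of the 10 genes and, right of the dotted line, of Cdh1 and Vim on the 3 keratinocyte-labelled arrays (blue) and the 3 MEF-labelled arrays (red). Points are arrays, lines are group means and the bands span the olfactory receptor background of each group. St14, Spint1 and Mst1r lie under their band on the keratinocyte-labelled arrays and in or above it on the MEF-labelled arrays, Plat lies the other way round, and Prss8 and Hgf do not rise above background on any array.

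The protease St14 was lower on the keratinocyte-labelled arrays. Its log2 signals were 2.77, 3.64 and 3.26 on the keratinocyte-labelled arrays, against 8.77, 8.65 and 8.84 on the MEF-labelled arrays. It was not above background on any keratinocyte-labelled array and well above it on every MEF-labelled array. The log2 difference was -5.53 (SE 0.20, adjusted p = 6.53e-08 from limma) as measured, and as a bound St14 was at least 8.29-fold lower on the keratinocyte-labelled arrays. Over the 3 arrays of a group St14 varied more where it was dim, with 3.23 ± 0.44 (SD, n = 3) on the keratinocyte-labelled arrays and 8.75 ± 0.10 (SD, n = 3) on the MEF-labelled arrays.

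Prss8, a protease tethered to the membrane by a lipid anchor, went the same way. It stood at 2.81, 3.55 and 2.35 on the keratinocyte-labelled arrays and at 5.72, 5.59 and 5.85 on the MEF-labelled arrays. The groups were apart, with a log2 difference of -2.81 (SE 0.26, adjusted p = 2.33e-05 from limma). Because Prss8 was above background on no array, no fold is given. Against a lower background, the 25th percentile of each array, it was above background on the 3 MEF-labelled arrays and at least 1.77-fold lower on the keratinocyte-labelled arrays.

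The inhibitors fell together with the proteases. Spint1 had log2 signals of 3.50, 3.51 and 3.19 on the keratinocyte-labelled arrays and of 8.75, 8.74 and 8.55 on the MEF-labelled arrays. It was not above background on any keratinocyte-labelled array either. Its difference was -5.28 (SE 0.12, adjusted p = 5.70e-09 from limma) as measured, and it was at least 7.89-fold lower on the keratinocyte-labelled arrays. Spint2 was above background on more of the arrays. It stood at 5.98, 5.83 and 5.94 on the keratinocyte-labelled arrays, above background on 2 of them, and at 9.19, 9.46 and 9.44 on the MEF-labelled arrays. Spint2 was thus 10.9-fold lower on the keratinocyte-labelled arrays (log2 difference of -3.45, SE 0.11, adjusted p = 2.69e-08 from limma).

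Whether a protease and its inhibitor changed by the same amount can be asked within each array, by taking the log2 signal of one from that of the other. This compares changes and not levels, because signals of different probe sets are not on a common scale. Of the 9 pairs of genes compared this way, St14 minus Spint1 came to -0.73, 0.13 and 0.07 on the keratinocyte-labelled arrays and to 0.02, -0.09 and 0.28 on the MEF-labelled arrays. The groups overlapped and the difference of -0.25 (SE 0.30) was within the spread of the arrays (exact two-sided permutation test, p = 0.7; Benjamini-Hochberg adjusted p = 0.7 over the 9 pairs). Without replicate 1 labelled keratinocytes it was 0.03. Both genes were under background on the keratinocyte-labelled arrays, so that a difference in their changes could be hidden there.

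Spint2 was set against both in the same way. St14 minus Spint2 was -3.21, -2.18 and -2.68 on the keratinocyte-labelled arrays and -0.43, -0.81 and -0.61 on the MEF-labelled arrays, without overlap (difference of -2.08, SE 0.32). Spint1 minus Spint2 likewise stood at -2.52 ± 0.22 on the keratinocyte-labelled arrays and at -0.69 ± 0.22 on the MEF-labelled arrays (SD, n = 3 each), a difference of -1.83 (SE 0.18). Since St14 and Spint1 were under background on the keratinocyte-labelled arrays, and their bounds of 8.29-fold and 7.89-fold lie under the 10.9-fold measured for Spint2, these values do not settle which of the 3 genes differed most. Prss8 minus Spint1 stood at -0.68, 0.04 and -0.84 on the keratinocyte-labelled arrays and at -3.03, -3.15 and -2.71 on the MEF-labelled arrays (difference of 2.46, SE 0.30). Spint1, on the keratinocyte-labelled arrays, and Prss8, on all arrays, were under background in this pair. For Prss8 minus Spint2 the groups overlapped (difference of 0.63, SE 0.41, exact two-sided permutation test, p = 0.2, adjusted p = 0.225). Each pair without overlap had p = 0.1 in the exact permutation test and an adjusted p = 0.129, which cannot reach the threshold with 3 arrays against 3.

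**Figure D2:**
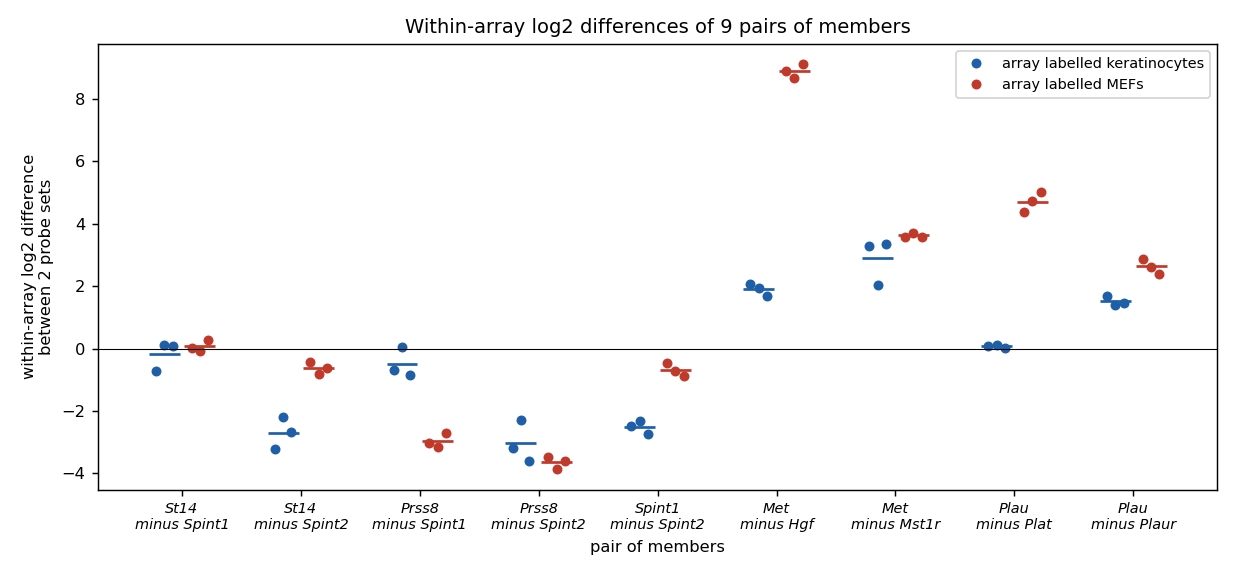
Within-array log2 difference between the probe sets of 2 genes (vertical axis) for 9 pairs, on the 3 keratinocyte-labelled arrays (blue) and the 3 MEF-labelled arrays (red), with points for arrays and lines for group means. The groups overlap for St14 minus Spint1 and for Prss8 minus Spint2, and they are apart for Met minus Hgf, with means of 1.90 on the keratinocyte-labelled and 8.88 on the MEF-labelled arrays, where the Hgf signals are under background.

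The ligand and its receptor ran in opposite directions. Met, the receptor of HGF, had log2 signals of 6.68, 6.41 and 6.48 on the keratinocyte-labelled arrays and of 10.12, 10.26 and 10.22 on the MEF-labelled arrays. It was above background on every array, and 12.8-fold lower on the keratinocyte-labelled arrays (log2 difference of -3.68, SE 0.10, adjusted p = 1.63e-08 from limma). Hgf stood at 4.62, 4.47 and 4.77 on the keratinocyte-labelled arrays, against 1.25, 1.60 and 1.11 on the MEF-labelled arrays. The log2 difference of Hgf was 3.30 (SE 0.14, adjusted p = 1.86e-07 from limma). No fold is given for it, since each of its signals lay under the background of its array and under the 25th percentile as well. Met minus Hgf was 2.06, 1.94 and 1.70 on the keratinocyte-labelled arrays and 8.88, 8.67 and 9.11 on the MEF-labelled arrays (difference of -6.98, SE 0.17). The groups were apart, but the size of this difference rests on Hgf signals under background on all arrays.

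Mst1r encodes RON, a receptor related to Met that binds the macrophage-stimulating protein. Its signals were 3.38, 4.36 and 3.12 on the keratinocyte-labelled arrays and 6.55, 6.57 and 6.64 on the MEF-labelled arrays. Replicate 2 labelled keratinocytes lay about 1 above the others of its group, yet far under the MEF-labelled arrays. The difference was -2.96 (SE 0.28, adjusted p = 2.37e-05 from limma) and Mst1r was at least 1.84-fold lower on the keratinocyte-labelled arrays. On 2 of the MEF-labelled arrays it exceeded the background level, 6.53 and 6.58, by less than 0.1. Met minus Mst1r was 3.30, 2.05 and 3.36 on the keratinocyte-labelled arrays and 3.58, 3.70 and 3.59 on the MEF-labelled arrays, a difference of -0.72 (SE 0.43) that came to -0.29 without replicate 2 labelled keratinocytes.

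The plasminogen activators did not go together. Plat had log2 signals of 7.84, 7.75 and 7.96 on the keratinocyte-labelled arrays, against 4.02, 3.51 and 3.30 on the MEF-labelled arrays, where it was above background on none. As a bound Plat was at least 2.76-fold higher on the keratinocyte-labelled arrays, with a log2 difference of 4.24 (SE 0.18, adjusted p = 1.45e-07 from limma) as measured. Plau was above background on all 6 arrays, with 7.91, 7.85 and 8.00 on the keratinocyte-labelled arrays and 8.39, 8.24 and 8.31 on the MEF-labelled arrays. It was 1.31-fold lower on the keratinocyte-labelled arrays (log2 difference of -0.39, SE 0.09, adjusted p = 4.43e-03 from limma). The size of this difference was exceeded by most probe sets tested, and with each array centred on its median, which shifts all differences by 0.12, it was -0.27 (adjusted p = 0.028).

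Plaur stood at 6.21, 6.44 and 6.55 on the keratinocyte-labelled arrays and at 5.51, 5.63 and 5.91 on the MEF-labelled arrays. It was higher on the keratinocyte-labelled arrays, with a log2 difference of 0.72 (SE 0.14, adjusted p = 1.45e-03 from limma). As a bound this is at least 1.01-fold, because the background of the MEF-labelled arrays lay above its signal there. With the 25th percentile of each array as background Plaur was above it on all 6 arrays and 1.65-fold higher on the keratinocyte-labelled ones. Plau and Plaur thus differed in opposite directions, by -0.39 and 0.72 on the log2 scale as measured. Plau minus Plaur was 1.52 ± 0.16 on the keratinocyte-labelled arrays and 2.63 ± 0.24 on the MEF-labelled arrays (SD, n = 3 each), a difference of -1.11 (SE 0.17), while Plau minus Plat was 0.07 ± 0.03 on the keratinocyte-labelled arrays and 4.70 ± 0.32 on the MEF-labelled arrays (SD, n = 3 each), a difference of -4.63 (SE 0.19). The sizes of both rest on Plaur and Plat signals under background on the MEF-labelled arrays.

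**Figure D3:**
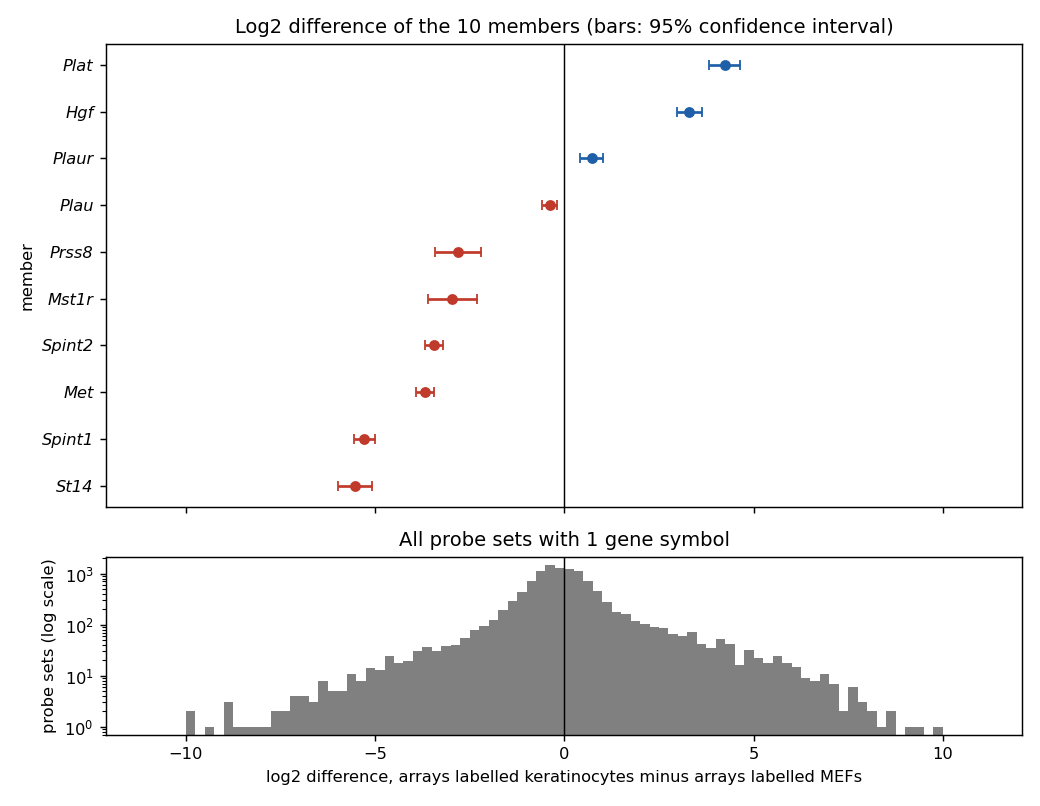
Upper panel, log2 difference of each of the 10 genes (horizontal axis, keratinocyte-labelled arrays minus MEF-labelled arrays) with its 95% confidence interval from limma. Lower panel, number of probe sets (log scale) by the same difference for all 11288 tested. Plat, Hgf and Plaur lie right of 0 and the other 7 left of it, with St14 at -5.53 and Plau at -0.39.

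Promoters of genes that differed in opposite directions were set side by side, since the study names E-boxes, which Snai and Zeb repressors bind, in the promoter of Cdh1. The RefSeq promoter table used here held 6 of the 10 genes: Spint1, Spint2, Hgf, Met, Mst1r and Plaur. The 250 bases before each start were searched on both strands for the E-box CAGGTG and the GC box GGGCGG, which Sp1-like factors bind. Printed are Spint1, Spint2 and Met, which were low with Vim high, and Hgf at the first of its 2 starts, which was high there. Capitals mark the motifs on either strand. The build is GRCm38.p6, with Spint1 at chr2:119237110-119237359 (+), Spint2 at chr7:29281978-29282227 (-), Met at chr6:17463707-17463956 (+) and Hgf at chr5:16553245-16553494 (+).
Spint1: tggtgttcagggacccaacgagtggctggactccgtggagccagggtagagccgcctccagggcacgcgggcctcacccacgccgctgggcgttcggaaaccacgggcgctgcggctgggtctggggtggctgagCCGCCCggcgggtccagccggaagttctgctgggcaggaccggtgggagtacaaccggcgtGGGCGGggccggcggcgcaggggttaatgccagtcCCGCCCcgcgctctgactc
Spint2: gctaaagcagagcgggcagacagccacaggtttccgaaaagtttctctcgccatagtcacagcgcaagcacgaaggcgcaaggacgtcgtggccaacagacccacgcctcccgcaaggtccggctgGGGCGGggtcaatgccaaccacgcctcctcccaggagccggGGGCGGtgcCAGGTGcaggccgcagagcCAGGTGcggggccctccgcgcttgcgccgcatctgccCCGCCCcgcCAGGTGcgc
Met: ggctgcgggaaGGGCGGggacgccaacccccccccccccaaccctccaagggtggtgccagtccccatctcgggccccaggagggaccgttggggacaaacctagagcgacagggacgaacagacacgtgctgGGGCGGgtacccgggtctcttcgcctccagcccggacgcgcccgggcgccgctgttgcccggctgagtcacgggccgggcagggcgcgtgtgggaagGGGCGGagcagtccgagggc
Hgf: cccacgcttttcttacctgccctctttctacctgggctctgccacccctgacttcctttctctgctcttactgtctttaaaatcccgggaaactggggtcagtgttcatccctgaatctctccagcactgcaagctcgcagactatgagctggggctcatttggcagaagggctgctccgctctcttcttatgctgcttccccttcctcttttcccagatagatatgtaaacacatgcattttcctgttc
Spint2 held 3 E-boxes and 3 GC boxes, which did not overlap each other. Spint1 and Met each held 3 GC boxes and 0 E-boxes, and Hgf held 0 of either at both of its starts. Plaur, which was higher on the keratinocyte-labelled arrays, also held 3 GC boxes, of which 2 overlap by 1 base, and Mst1r held 2 at 1 of its 2 starts. Over the 32851 promoters of the table, 17.2% held an E-box and 32.7% a GC box in the same window. These matches describe the letters only.

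Genes that act on the same proteins were read from 8 lists, also chosen with earlier results known, and 50 of their genes were measured. Of these, 15 were higher and 25 lower on the keratinocyte-labelled arrays, while over all 10261 genes 32.9% were higher and 41.7% lower, with a median log2 difference of -0.12. Each gene was counted by its brightest probe set.

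Other membrane proteases followed St14 only in part. Of 5 measured, 3 were lower on the keratinocyte-labelled arrays and 2 did not pass, Tmprss6 (log2 difference of 0.13) and Prss27 (-0.02), with a median of -1.28. Prss22, a trypsin-like protease of epithelia, stood at 4.32, 3.97 and 4.61 on the keratinocyte-labelled arrays and at 7.56, 7.57 and 7.74 on the MEF-labelled arrays, at least 3.80-fold lower on the keratinocyte-labelled arrays (adjusted p = 3.63e-07 from limma). Tmprss13 (-2.41) and Tmprss4 (-1.28) were lower too, but like the pair that did not pass they were above background on no array. Of the kallikreins, secreted proteases of the epidermis, 2 of 14 listed were measured and both were lower on the keratinocyte-labelled arrays. Klk10 was at least 5.23-fold lower (log2 difference of -3.71), and Klk8 differed by -1.86 without rising above background.

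Of proteins described as substrates of matriptase or prostasin, or as their partners, 4 of 10 listed were measured and 4 were lower on the keratinocyte-labelled arrays (median log2 difference of -3.71). Epcam, an adhesion protein that matriptase cleaves, had signals of 2.25, 1.58 and 1.86 on the keratinocyte-labelled arrays and of 8.88, 8.64 and 8.38 on the MEF-labelled arrays. It is also among the keratinocyte markers read for the label check, so its direction here is not a separate result. Cdcp1, a transmembrane protein cut by serine proteases, stood at 3.38, 3.28 and 3.08 on the keratinocyte-labelled arrays and at 9.27, 9.26 and 9.14 on the MEF-labelled arrays, at least 11.5-fold lower on the keratinocyte-labelled arrays (adjusted p = 2.58e-09 from limma). The sodium channel subunit gene Scnn1a (-1.45) and Mst1, which encodes the ligand of RON (-1.03), also passed, and neither was above background on any array. Mst1 and its receptor Mst1r were therefore both lower on the keratinocyte-labelled arrays, unlike Hgf and Met. The other gene measured in the list of HGF and MSP activation was Masp1, a serine protease of the complement system, which was at least 1.54-fold higher there (log2 difference of 5.01).

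The genes listed for signalling by Met, which include a binder of HGF at the cell surface, showed no common direction. Of 22 measured genes, 8 were higher on the keratinocyte-labelled arrays, 8 were lower and 6 did not pass, with a median log2 difference of 0.13. Over all genes 32.9% were higher and 41.7% lower. Sdc1, a heparan sulphate proteoglycan that binds HGF, differed most among those that fell, with 8.18, 8.19 and 8.28 on the keratinocyte-labelled arrays and 10.46, 10.47 and 10.42 on the MEF-labelled arrays (4.70-fold lower, adjusted p = 8.46e-08 from limma). Inppl1, a lipid phosphatase recruited to Met, was 3.02-fold higher on the keratinocyte-labelled arrays, and Pik3r1, a regulatory subunit of PI3-kinase, 2.89-fold, both as measured. On the MEF-labelled arrays Inppl1 was above background on 2 of 3 and Pik3r1 on 1 of 3. The adaptor gene Gab2 differed by 2.17 with signals of 4.75, 5.55 and 5.57 on the keratinocyte-labelled arrays and of 3.44, 2.65 and 3.27 on the MEF-labelled arrays, and no fold is given for it. Gab1, the adaptor that Met phosphorylates and chosen here after its values were seen, differed by 0.28 (adjusted p = 0.0239 from limma) and lost its call without replicate 2 labelled MEFs (adjusted p = 0.0948) and in 3 of the other 5 fits that left out an array.

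Genes for receptors of plasminogen and for the uptake of its activators were called in both directions. Of 8 measured, 5 were higher on the keratinocyte-labelled arrays, 2 were lower and Plgrkt did not pass (log2 difference of -0.42), with a median of 0.59. Mrc2, a collagen uptake receptor that associates with the urokinase receptor, had signals of 9.02, 9.21 and 8.84 on the keratinocyte-labelled arrays and of 3.31, 3.05 and 3.01 on the MEF-labelled arrays, at least 6.22-fold higher on the keratinocyte-labelled arrays (adjusted p = 5.18e-09 from limma). Lrp1, the receptor that clears activators bound to their inhibitors, was 6.78-fold higher there, with 10.16, 10.09 and 10.10 against 7.38, 7.18 and 7.50 on the MEF-labelled arrays, and the integrin gene Itgb3 differed by 2.46. The exceptions form 1 protein complex that binds plasminogen. S100a10 was 2.55-fold lower on the keratinocyte-labelled arrays (log2 difference of -1.35) and its partner Anxa2 was lower as well (-0.55).

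Of the inhibitors of plasminogen activation and of related intracellular serpins, 3 of 11 listed were measured and 3 were lower on the keratinocyte-labelled arrays. Serpinb2, which encodes the urokinase inhibitor PAI-2, stood at 2.46, 1.58 and 2.13 on the keratinocyte-labelled arrays and at 8.33, 8.57 and 8.36 on the MEF-labelled arrays, at least 6.58-fold lower on the keratinocyte-labelled arrays (adjusted p = 3.49e-08 from limma). Serpinb8 (-2.64) and Serpinb6a (-0.92) differed by less. Serpinb8 was above background on only 1 MEF-labelled array, and at least 1.72-fold lower on the keratinocyte-labelled arrays. Of 13 listed genes for other serine protease inhibitors and for proteins of the same families, 5 were measured. Among these, 3 were lower, 1 was higher and Wfikkn1 did not pass (log2 difference of -0.32). Serpinb5, which encodes maspin, was at least 11.7-fold lower on the keratinocyte-labelled arrays and Wfdc2 at least 5.42-fold lower, while Slpi (-0.78) was above background on no array. The Kunitz inhibitor gene Tfpi went against Spint1 and Spint2, with 6.70, 6.63 and 6.43 on the keratinocyte-labelled arrays and 1.53, 2.43 and 2.37 on the MEF-labelled arrays, at least 1.15-fold higher on the keratinocyte-labelled arrays (log2 difference of 4.47, adjusted p = 4.91e-07 from limma).

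**Figure D4:**
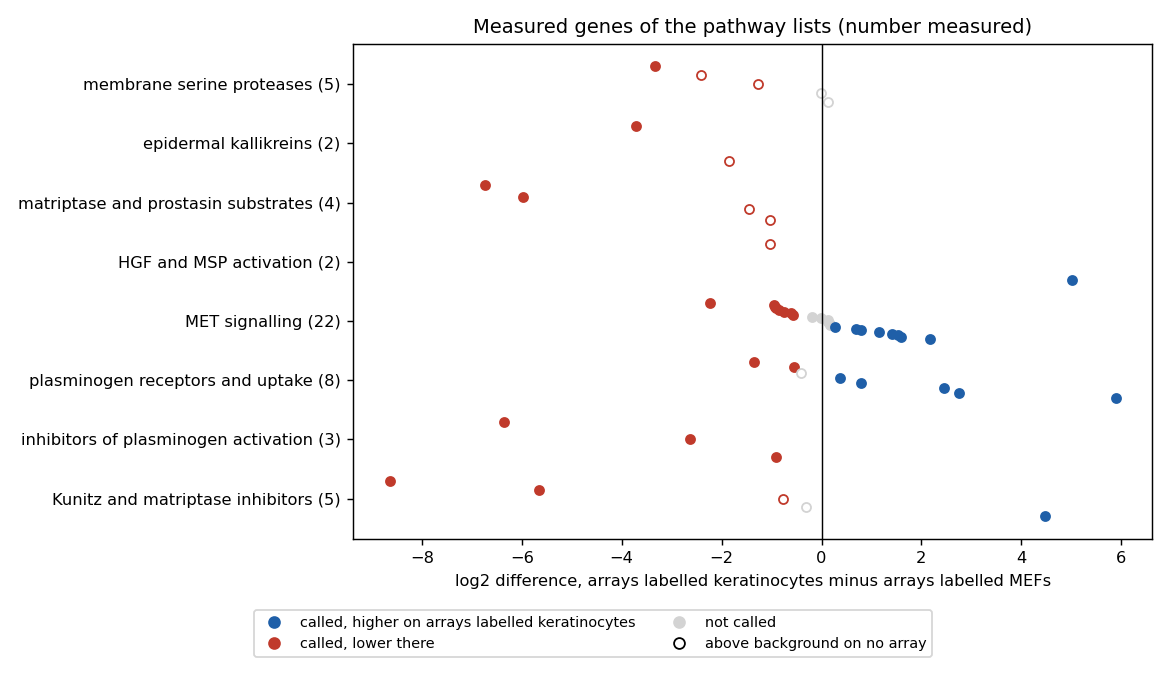
Log2 difference (horizontal axis, keratinocyte-labelled arrays minus MEF-labelled arrays) of each measured gene of the 8 lists, with the number measured beside the list name. Blue and red points passed the test as higher and lower on the keratinocyte-labelled arrays, grey points did not pass and open points were above background on no array. The 22 genes of signalling by Met lie on both sides of 0, and the 4 substrate genes all lie left of it.

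The genes most like 3 of the members were sought by the root mean square difference of log2 signals over the 6 arrays, each centred on its own mean. For St14 these were Sfn (0.19), which encodes a 14-3-3 protein of stratified epithelia, Clic3 (0.20) and the Wnt ligand gene Wnt7b (0.21). For Met they were AA986860 (0.08), Klk10 (0.08) and Sh3d21 (0.09), and for Hgf the ephrin receptor gene Epha7 (0.09), Bnip3 (0.12) and Tnfaip6 (0.12), which encodes a hyaluronan-binding protein. The 6 arrays form 2 clusters, so that genes with a like difference between the groups come out as near.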

How the data were processed

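Of 6 MoGene-1_0-st arrays, 3 carry the label keratinocytes and 3 the label MEFs. For each array the authors deposited a column of log2 signals over 15648 probe sets. According to the methods these were normalized by RMA in oligo, version 1.46.0 in the submitters' processing notes. That the deposited log2 signals are this output was inferred from their range. RMA includes a step that gives the arrays a common distribution, so a signal is relative to the other probe sets of its array. The medians of the deposited signals still differed, from 6.16 to 6.31. Groups were taken from the sample labels.

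The platform's annotation gave 11288 probe sets 1 gene symbol, 645 several and left 3715 unnamed here, and symbols were updated by gene identifier for 11274 through RefSeq (GRCm38.p6). The keratinocyte-labelled arrays were compared with the MEF-labelled arrays with limma 3.58.1 (lmFit, eBayes; R 4.3.3), unpaired, over these probe sets. The pathway lists and the 9 within-array pairs were described by counts, medians and exact permutation tests (scipy 1.17.1). Named are all members, up to 4 genes of each list with the largest differences, those that passed against most of their list and, for St14, Met and Hgf, the 3 genes nearest in profile. Genes that did not pass were named as well. The members and lists were chosen with earlier results of these data known. On simulated data with 200 of 11288 probe sets changed, the fit recovered 88% of log2 changes of 1 and 100% of changes of 2. In the real data 74.0% of probe sets passed, so these rates need not hold there. Genes of the lists without a named probe set were not analysed here. The number of arrays limits the precision. Each result was recomputed with the replicate number as a block, without each array, after centring on medians or quantile normalization, with dim probe sets removed, with a trend, array weights or the methods' t-test, over all probe sets, over means of a gene's probe sets, with a minimum difference and with other background levels. Plots used matplotlib 3.10.9 (Python 3.11.15).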

Additional observations from a re-analysis of the deposited data

How the results depend on the processing

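All 10 members kept their direction and passed in each fit in which they were tested. Prss8 and Hgf were left out by both filters on dim probe sets, so that 6 members were called lower and 2 higher there. The fit with the replicate number as a block called 7 lower and 3 higher, and over all probe sets 4312 lower and 3377 higher on the keratinocyte-labelled arrays, against 4697 and 3657 without it. Same-numbered arrays did not deviate together (r of -0.231, -0.209 and -0.032), while differently numbered ones gave r of -0.032 to 0.214. Deviations from means of 3 arrays cannot settle whether the numbers pair the arrays. Under the block Gab1 lost its call (adjusted p = 0.0705). With a minimum log2 difference of 1, Plau (-0.39) and Plaur (0.72) dropped out and 8 members remained. The genes of the pathway lists called lower were then 15, against 25 without that minimum. Quantile normalization changed St14 minus Spint2 to -2.52, Spint1 minus Spint2 to -2.28, Met minus Hgf to -6.55 and Plau minus Plat to -4.39. The background sets the bounds: with the 25th percentile of each array, St14 was at least 14.5-fold, Spint1 13.8-fold and Mst1r 3.22-fold lower, and Plat at least 7.89-fold higher, on the keratinocyte-labelled arrays. Of 998 values recomputed in this way 25 were counted as moved, 5, all of Gab1, lost a call, and no called value changed sign. Values not counted as moved could still shift. Without replicate 2 labelled keratinocytes, Met minus Mst1r went from -0.72 to -0.29 and Prss8 minus Spint2 from 0.63 to 0.26. Without replicate 1 labelled keratinocytes, St14 minus Spint1 went from -0.25 to 0.03. Vomeronasal and taste receptors added no probe set to the background. Signals at or under background limit what can be said of St14, Spint1 and Mst1r on the keratinocyte-labelled arrays, of Plat and Plaur on the MEF-labelled arrays, and of Prss8 and Hgf on all arrays.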
